A study of Homo sapiens with 6 samples.

Results

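The genes described here are 51 ligands, receptors and modulators of Wnt signalling, taken by symbol from a fixed list of names, among 60617 gene identifiers counted in each of 6 melanoma tumors. All 51 matched an identifier. Of these, 35 passed the low-count filter and were tested together with the other genes, 20423 in all, and 16 did not pass it. The tumors were xenografts of the established human melanoma line WM983-B, and a sequencing library was prepared from total RNA of each. They fell into 3 tumors treated systemically with anle138b, a diphenyl-pyrazole compound that binds oligomers of α-synuclein, and 3 untreated tumors. No dose, duration or host strain was given in the sources used here. The sample titles formed 2 naming sets, each with both groups, namely a 2-library set (replicate 3 of each group) and a 4-library set (replicates 1 and 2 of each group). The meaning of the naming sets is not given in those sources.

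Wnt proteins are secreted, lipid-modified ligands that bind Frizzled receptors. In the β-catenin branch they bind Frizzled together with LRP5 or LRP6, which stops the destruction complex of AXIN and APC from degrading β-catenin, and β-catenin then acts with TCF/LEF factors on target genes. In other branches, ligands such as WNT5A act through ROR1, ROR2 or RYK on the cytoskeleton and on calcium signalling. In melanoma the β-catenin branch is known for its link to the melanocyte lineage and the WNT5A branch for its link to invasion.

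Gene counts summed to between 12400782 and 27599159 per tumor, with both libraries of the 2-library set deeper than the other 4. Levels are given in CPM, the count of a gene scaled to library size after TMM normalisation. The floor, the level that 3 counts stand for, was 0.240 CPM in anle138b replicate 2, the shallowest tumor, and 0.106 CPM in anle138b replicate 3, the deepest, and it covers counting error alone. All 12 melanoma and melanocyte markers were detected in every tumor, with a summed level of 16306 to 19953 CPM in anle138b tumors and 15031 to 19239 CPM in untreated tumors. Single markers varied more, with treatment log2 fold changes from -0.46 to 1.42. By edgeR 4 of the 12 had an unadjusted p under 0.05, against 8.49% of all genes, and the smallest adjusted p was 0.0692. The libraries were bulk RNA, so fewer cells of a type and less RNA per cell cannot be told apart. The labels do not state whether each tumor grew in its own animal, and the p-values therefore describe only the variation among these libraries, which may be technical.

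After anle138b, 2 of the 35 tested Wnt genes rose, 0 fell and 33 missed the threshold. Those that rose were DKK3, a secreted glycoprotein of the Dickkopf family, and DACT1, an intracellular partner of Dishevelled that modulates Wnt signalling. Over all genes, 1.05% were called for treatment by edgeR's quasi-likelihood test at an adjusted p under 0.05, 0.656% as raised and 0.397% as lowered. The 51 genes were listed with earlier results of these tumors known, DKK3 among them, so the count of 2 is a description. At an unadjusted p under 0.05 there were 3 of the 35, against 8.49% of all genes. The median log2 fold change of the 35 genes was -0.06, against -0.01 over all genes. The treated tumors lay wholly above the untreated tumors for 5 of the 35 genes, DKK3, DACT1, DACT3, WNT5A and LEF1, and wholly below them for 0, while over all genes such separation was seen for 4.03% and 4.47%, or 8.5% in either direction.

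**Figure D1:**
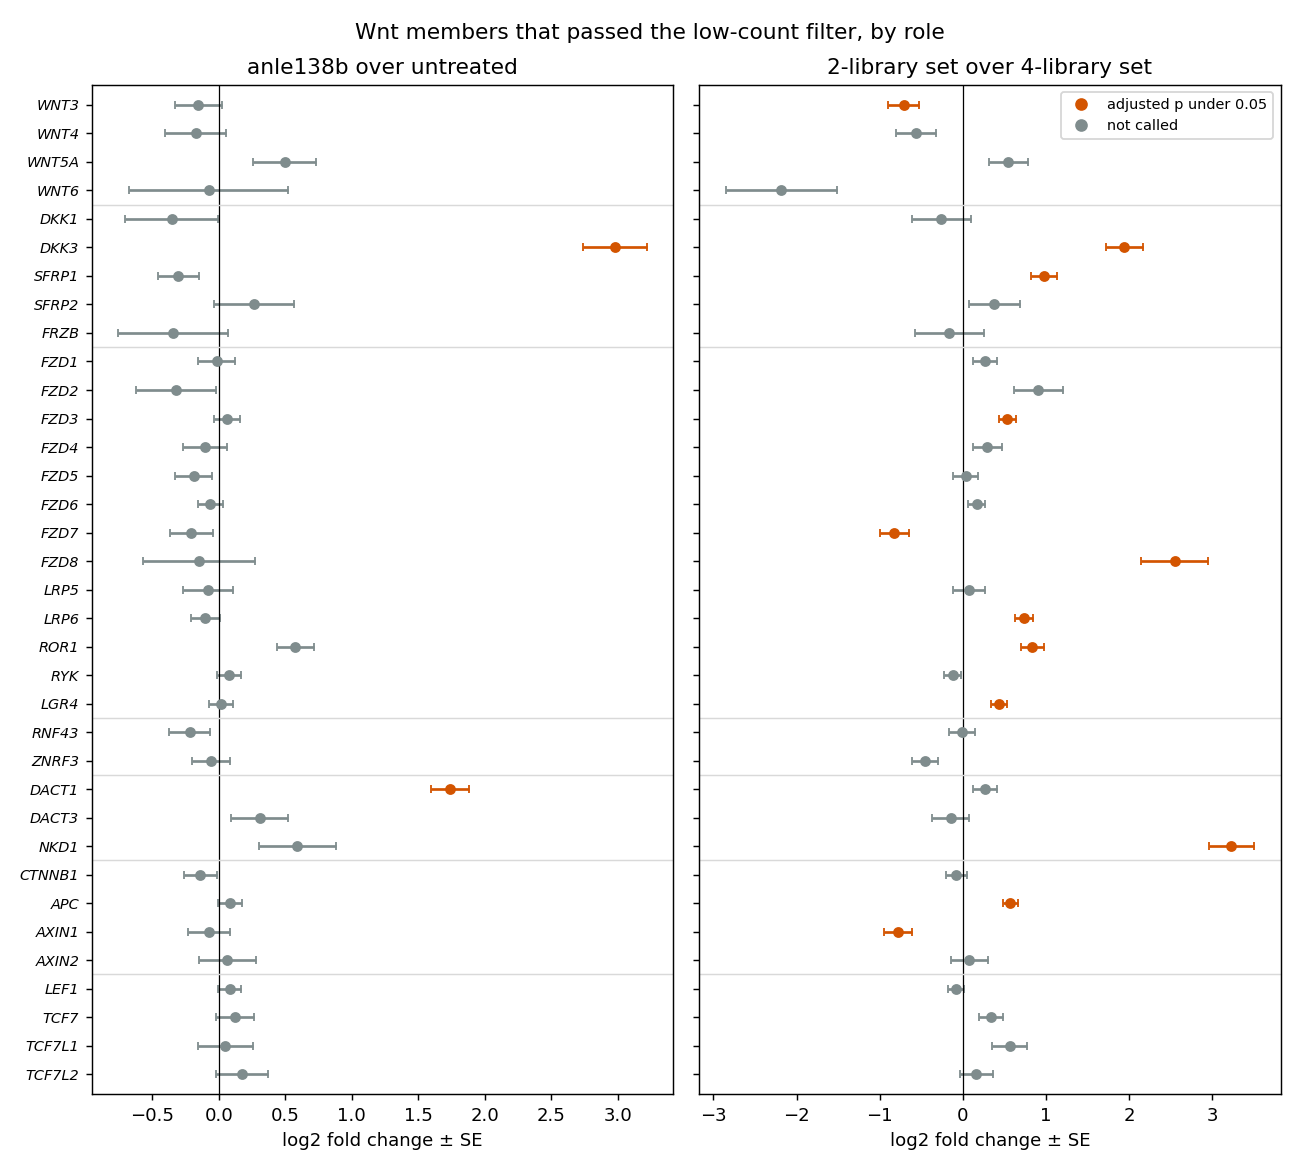
Log2 fold change with its standard error for the 35 Wnt genes that passed the filter, grouped by role from ligands at the top to TCF/LEF factors at the bottom. The left panel shows anle138b over untreated and the right panel the 2-library set over the 4-library set. DKK3 (2.98) and DACT1 (1.74) stand apart on the left, and 12 genes are called on the right.

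Among the secreted modulators, DKK3 had 8.26, 10.3 and 43.8 CPM in anle138b tumors, against 1.89, 1.19 and 4.07 CPM in untreated tumors. Every treated tumor was above every untreated tumor, and in each group the highest value was that of the 2-library set. The counts behind these levels were 108, 129 and 1239 in anle138b tumors, against 31, 16 and 96 in untreated tumors. The log2 fold change was 2.98 ± 0.24 (SE, n = 3 per group; edgeR adjusted p = 0.000527), a 7.89-fold rise. DKK3 lies on chromosome 11 at 11963106 to 12009769 on the minus strand (GRCh38). Within the 4-library set alone the log2 fold change was 2.57 (edgeR adjusted p = 0.00479), and in the 2-library pair the treated tumor was higher by 3.39 in log2 CPM. The difference between these effects did not pass the test (edgeR interaction log2 difference 0.86, unadjusted p = 0.0557, adjusted p = 0.749). Without the term for the naming set the log2 fold change was 3.10 and the call was lost (edgeR adjusted p = 0.457). The 4 genes tested within 500 kb of DKK3 had log2 fold changes from -0.39 to 0.36 and 0 were called. USP47, 3783 bases away, had a change of 0.01 ± 0.09.

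Markers of fibroblasts and pericytes, cell types that express several secreted Wnt modulators, were measured beside these genes. All 15 were detected in every tumor, and their summed level was 494, 570 and 898 CPM in anle138b tumors, against 543, 458 and 621 CPM in untreated tumors. The groups overlapped, and the tumor with the highest sum was also the one with the highest DKK3. Within the 4-library set the marker sums of the groups overlapped, and DKK3 was higher in each treated tumor than in each untreated tumor. The part of these cell types in the level of DKK3 was not tested. Of the 15 markers 1 rose and 0 fell, against 0.656% raised and 0.397% lowered of all genes. The 1 that rose was LUM, the gene of the proteoglycan lumican (log2 fold change 0.70 ± 0.12, edgeR adjusted p = 0.0249). The log2 fold changes of the 15 ran from -0.26 to 0.70, with a median of -0.02. At an unadjusted p under 0.05 there were 2 of the 15, against 8.49% of all genes. The sources used here do not say how mouse reads were handled, so whether host transcripts were counted as human genes is not known, and their part in the rise of DKK3 was not tested.

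The other Dickkopf genes were low. DKK1, which binds LRP6 and inhibits the β-catenin branch, had 2.22, 1.52 and 1.24 CPM in anle138b tumors, against 2.80, 1.19 and 2.08 CPM in untreated tumors, and these ranges overlapped (log2 fold change -0.35 ± 0.35, edgeR adjusted p = 0.916). DKK2 and DKK4 did not pass the filter, with at most 23 and 4 counts in any library. Per kilobase of exon, DKK3 made up 59.2%, 66.0% and 92.3% of the summed Dickkopf level in anle138b tumors, against 18.4%, 24.1% and 37.2% in untreated tumors. DKK1 made up 36.4%, 22.3% and 5.98% in anle138b tumors, against 62.6%, 55.3% and 43.6% in untreated tumors. By this measure DKK3 was the main Dickkopf transcript in each treated tumor and DKK1 in each untreated tumor. The order in untreated tumors depends on the division by all annotated exon bases, 5059 for DKK3 and 2206 for DKK1. Raw counts there were 46, 16 and 49 for DKK1, against 31, 16 and 96 for DKK3. Which transcripts of each gene were present was not measured. These levels per kilobase were low, with Dickkopf sums of 2.76, 3.09 and 9.39 CPM per kb in anle138b tumors and 2.03, 0.972 and 2.16 CPM per kb in untreated tumors.

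The secreted Frizzled-related proteins bind Wnt ligands outside the cell. SFRP1 had 11.9, 15.9 and 32.6 CPM in anle138b tumors, against 19.9, 19.4 and 32.2 CPM in untreated tumors, with a log2 fold change of -0.31 ± 0.15 (edgeR adjusted p = 0.68). SFRP2 had 3.90, 4.23 and 8.67 CPM in anle138b tumors, against 5.05, 5.19 and 3.69 CPM in untreated tumors (log2 fold change 0.26 ± 0.30, edgeR adjusted p = 0.937). Both treated tumors of the 4-library set were below both untreated tumors for SFRP2, while the treated tumor of the 2-library pair was above its untreated partner. FRZB, a further Frizzled-related protein, had a log2 fold change of -0.34 ± 0.41 at 6 to 23 counts per library. WIF1, a secreted Wnt inhibitor, had 0 counts in all 4 libraries of the 4-library set and 2 and 5 in the treated and untreated library of the other. NOTUM, a secreted enzyme that removes the lipid of Wnt proteins, had 0 to 5 counts.

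Of the 10 Wnt ligands listed, 4 passed the filter and 0 of these were called for treatment. WNT5A, the ligand most tied to the ROR branch, had 2.98, 3.12 and 5.80 CPM in anle138b tumors, against 2.86, 2.59 and 2.93 CPM in untreated tumors. The groups did not overlap, but the lowest treated tumor (2.98) lay just above the highest untreated tumor (2.93), and the log2 fold change of 0.49 ± 0.24 did not pass (edgeR adjusted p = 0.643). WNT3 and WNT4 had log2 fold changes of -0.15 ± 0.18 and -0.18 ± 0.23. WNT6, at 1 to 19 counts per library, had a change of -0.08 ± 0.60. WNT2, WNT5B, WNT7B, WNT10A, WNT10B and WNT11 did not pass the filter.

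Receptors and co-receptors made up 17 of the genes, and 13 were tested. For treatment edgeR called 0 of these, with ROR1 the 1 gene whose unadjusted p was under 0.05, while DESeq2 called ROR1, with 2.02% of all genes called by it, and limma called 0. ROR1 is an orphan receptor tyrosine kinase that binds WNT5A. ROR1 had 14.1, 15.2 and 29.1 CPM in anle138b tumors, against 11.7, 9.63 and 17.0 CPM in untreated tumors. Within each naming set the treated tumors were above the untreated ones, but the groups overlapped across sets. Its log2 fold change was 0.57 ± 0.14 (edgeR adjusted p = 0.118), and 0.59 by DESeq2 (adjusted p = 0.0472). RYK, an atypical receptor kinase for Wnt, had 101 to 119 CPM in anle138b tumors and 104 to 109 CPM in untreated tumors (log2 fold change 0.08 ± 0.09).

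The Frizzled genes showed changes from -0.32 (FZD2) to 0.06 (FZD3) on the log2 scale after treatment, with 8 of the 10 tested and 0 called. Per kilobase of exon, FZD6 and FZD7 were the main Frizzled transcripts. FZD6 made up 47.4%, 47.9% and 49.95% of the summed Frizzled level in anle138b tumors, against 43.9%, 41.6% and 54.0% in untreated tumors. FZD7 made up 32.8%, 31.8% and 21.2% in anle138b tumors, against 35.3%, 38.9% and 18.6% in untreated tumors. The sum over the 10 genes was 48.5 to 55.5 CPM per kb in anle138b tumors and 52.5 to 64.8 CPM per kb in untreated tumors. FZD5 followed with 7.59% to 8.87% over the 6 tumors, then FZD3 with 4.55% to 7.92%. The co-receptors LRP5 and LRP6 had log2 fold changes of -0.08 ± 0.19 and -0.10 ± 0.11. LGR4, a receptor for R-spondin, had one of 0.02 ± 0.09, while its relative LGR5 had 2 to 7 counts per library. The ubiquitin ligases RNF43 and ZNRF3, which remove Frizzled from the cell surface, had changes of -0.22 ± 0.15 and -0.06 ± 0.15. Reads of RNF43 may be shared with the overlapping gene AC004687.2, which covers 57.6% of its exon bases in GENCODE.

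**Figure D2:**
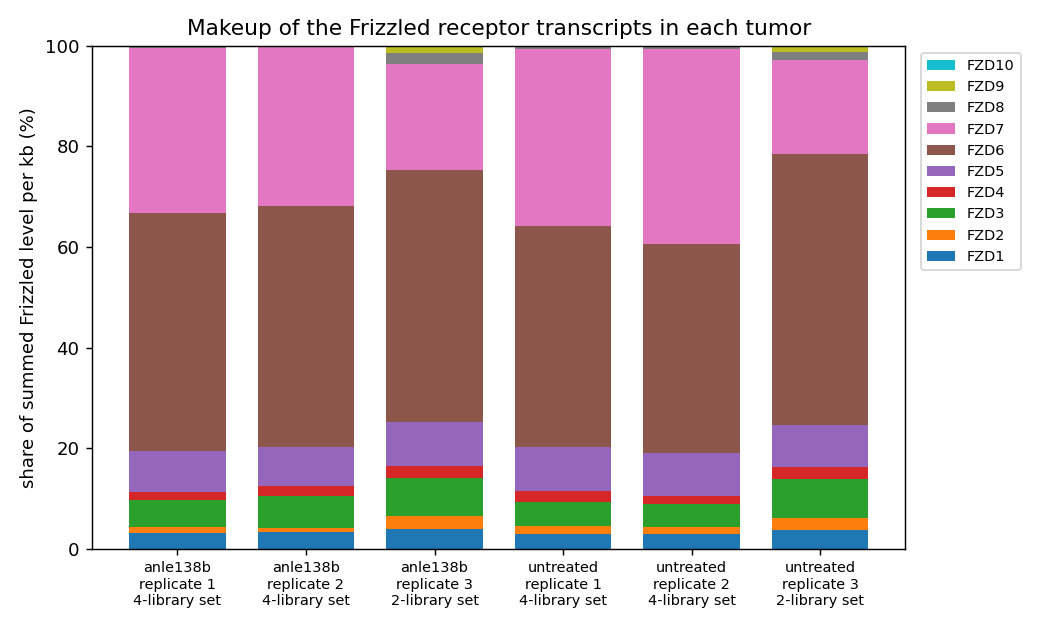
Share of each Frizzled gene in the summed Frizzled level per kilobase of exon (percent), 1 bar per tumor, anle138b tumors on the left. FZD6 is the largest part of every bar, and FZD7 is smaller in replicate 3 of each group (21.2% and 18.6%) than in the other 4 tumors (31.8% to 38.9%).

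DACT1 is a scaffold protein that binds Dishevelled, the intracellular hub of Wnt signalling. Its promoter windows are shown because it was the Wnt gene whose call for treatment held under every alternative run. RefSeq (GRCh38.p14) lists 3 starts for it on the plus strand, and the 250 bases before each are printed 5′ to 3′, with capitals marking CTTTG, the core letters of the TCF/LEF motif, on either strand.
DACT1 start A, chr14:58633811-58634060: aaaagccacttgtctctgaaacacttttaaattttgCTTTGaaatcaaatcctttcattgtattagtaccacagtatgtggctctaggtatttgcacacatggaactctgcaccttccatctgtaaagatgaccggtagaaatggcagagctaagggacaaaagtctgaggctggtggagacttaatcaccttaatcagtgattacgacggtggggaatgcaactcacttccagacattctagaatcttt
DACT1 start B, chr14:58637712-58637961: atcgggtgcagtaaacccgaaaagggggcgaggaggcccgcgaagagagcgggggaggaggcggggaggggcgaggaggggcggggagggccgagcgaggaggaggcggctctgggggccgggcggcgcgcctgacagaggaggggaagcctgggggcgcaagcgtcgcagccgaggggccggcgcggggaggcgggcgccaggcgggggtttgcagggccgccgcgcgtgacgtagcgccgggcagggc
DACT1 start C, chr14:58638587-58638836: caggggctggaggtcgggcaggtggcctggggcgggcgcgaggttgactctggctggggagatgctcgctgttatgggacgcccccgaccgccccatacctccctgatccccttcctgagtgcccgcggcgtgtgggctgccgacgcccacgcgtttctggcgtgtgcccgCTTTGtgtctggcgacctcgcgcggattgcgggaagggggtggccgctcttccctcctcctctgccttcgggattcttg
The core was found once before start A, once before start C and not before start B, and the longer motif CTTTGAT was found in none of the windows. CTTTG or its reverse complement occurs in 42.1% of all 35116 RefSeq windows of this length and CTTTGAT in 2.26%, where the core hits include those of the longer motif. Among the 43 windows of the 33 Wnt genes with an entry, 14 held the core and 0 the longer motif. The windows before starts A, B and C held 3, 33 and 24 CpG dinucleotides, against a median of 11 over all windows and 23 over those of the Wnt genes. The counts are summed per gene, so which start the reads came from was not measured.

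DACT1 had 24.8, 26.9 and 28.9 CPM in anle138b tumors, against 8.22, 6.30 and 9.59 CPM in untreated tumors. No treated tumor came near an untreated one, with means of 26.9 ± 2.05 CPM in anle138b tumors and 8.03 ± 1.65 CPM in untreated tumors (SD, n = 3 each). The counts were 324, 337 and 816 in anle138b tumors, against 135, 85 and 226 in untreated tumors. The log2 fold change was 1.74 ± 0.14 (edgeR adjusted p = 0.000598), a 3.34-fold rise. It was 1.82 in the 4-library set alone (edgeR adjusted p = 0.00197), and the log2 CPM difference in the 2-library pair was 1.58. The call also held without the term for the naming set (log2 fold change 1.74, edgeR adjusted p = 0.0494). Unlike DKK3, DACT1 was not called between the naming sets (log2 fold change 0.27 ± 0.14, edgeR adjusted p = 0.238). The gene lies on chromosome 14 at 58633967 to 58648321 on the plus strand (GRCh38). Of the 10 genes tested within 500 kb, 0 were called, with changes from -0.36 to 0.54. LINC01500, a long non-coding RNA that shares 378 exon bases with DACT1 on the same strand, had 1, 2 and 6 counts in anle138b tumors and 0, 0 and 4 in untreated tumors, far fewer than DACT1.

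DACT3, a relative of DACT1, had 3.67, 2.80 and 2.87 CPM in anle138b tumors, against 2.497, 2.67 and 2.38 CPM in untreated tumors. Its groups did not overlap, and its log2 fold change of 0.31 ± 0.22 did not pass (edgeR adjusted p = 0.843). DACT2 had 0 to 18 counts per library. NKD1, a Dishevelled antagonist that is itself a target of β-catenin, had 0.841, 1.20 and 13.9 CPM in anle138b tumors, against 0.913, 1.26 and 6.83 CPM in untreated tumors. The groups overlapped in the 4-library set, and the log2 fold change was 0.59 ± 0.29 (edgeR adjusted p = 0.667). NKD2 had 0 to 13 counts.

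**Figure D3:**
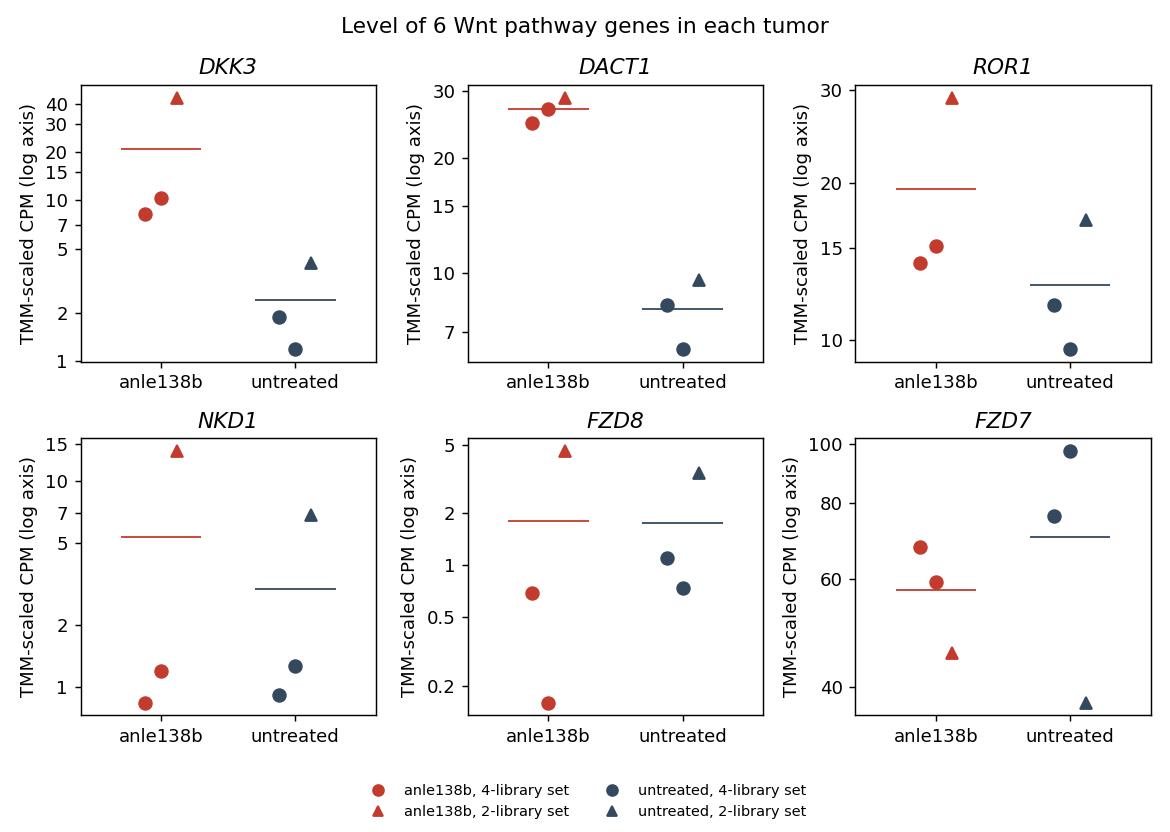
Level of DKK3, DACT1, ROR1, NKD1, FZD8 and FZD7 in each tumor, in TMM-scaled CPM on a log axis, with anle138b left of untreated, circles for the 4-library set, triangles for the 2-library set and lines for group means (n = 3). The groups are separate for DKK3 and DACT1, while for ROR1, NKD1, FZD8 and FZD7 the naming sets are separate.

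In the core of the β-catenin branch 0 of 4 genes were called. CTNNB1, which encodes β-catenin, had 1173, 957 and 1019 CPM in anle138b tumors, against 1138, 1221 and 1108 CPM in untreated tumors. Its ranges overlapped (log2 fold change -0.14 ± 0.12, edgeR adjusted p = 0.901). Per kilobase it was the highest of the 51 genes, at 80.3 to 102 CPM per kb over the 6 tumors. FZD6 followed at 23.2 to 28.3 CPM per kb, FZD7 at 9.78 to 25.2, LEF1 at 12.7 to 14.5 and RYK at 12.5 to 14.8, and the ranges of FZD6 and FZD7, and of FZD7, LEF1 and RYK, overlapped. APC and AXIN1, scaffolds of the destruction complex, had log2 fold changes of 0.08 ± 0.09 and -0.07 ± 0.16. AXIN2, a scaffold that is also a widely used readout of β-catenin activity, had 5.51, 4.55 and 6.93 CPM in anle138b tumors, against 5.66, 6.22 and 4.67 CPM in untreated tumors. Its log2 fold change was 0.06 ± 0.21 (edgeR adjusted p = 0.984), and AC004805.1, which had 0 counts in every library, overlaps 25.2% of its exon bases.

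The 4 TCF/LEF factors had log2 fold changes from 0.05 to 0.17 and 0 were called. LEF1, a DNA-binding partner of β-catenin, had 77.8, 76.4 and 75.3 CPM in anle138b tumors, against 74.2, 75.2 and 68.1 CPM in untreated tumors. The lowest treated tumor (75.3) lay next to the highest untreated tumor (75.2) (log2 fold change 0.08 ± 0.09, edgeR adjusted p = 0.936). LEF1 made up 72.0% to 78.0% of the summed TCF/LEF level per kilobase in anle138b tumors and 68.9% to 78.8% in untreated tumors, with TCF7, TCF7L1 and TCF7L2 sharing the rest.

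A further 124 genes of the pathway were listed by function, and 92 passed the filter. Treatment raised 2 of these, lowered 0 and left 90 without a call, where 0.656% of all genes were raised and 1.05% called in either direction. Their median log2 fold change was 0.01. Both genes that rose belonged to the list of planar polarity and calcium signalling, 2 of 30 tested. In that list 7 had an unadjusted p under 0.05, against 8.49% of all genes. Its log2 fold changes ran from -0.69 to 1.32. Treated tumors lay wholly higher for 3 of its genes and wholly lower for 2, against 4.03% and 4.47% of all genes. One of the lower 2 was CELSR2, named after its values were seen (log2 fold change -0.47 ± 0.12, edgeR adjusted p = 0.145). NFATC2, a transcription factor activated by calcium and calcineurin, had 181, 197 and 263 CPM in anle138b tumors, against 91.8, 106 and 115 CPM in untreated tumors. The groups did not overlap, and its log2 fold change was 1.02 ± 0.11 (edgeR adjusted p = 0.00217, or 0.14 without the term for the naming set). ROCK2, a kinase of the actin cytoskeleton downstream of RHOA, had 271, 298 and 323 CPM in anle138b tumors, against 193, 170.2 and 224 CPM in untreated tumors. Its log2 fold change was 0.61 ± 0.10 (edgeR adjusted p = 0.0226), and the call was lost without the term for the naming set (edgeR adjusted p = 0.396). It was also lost in the 4-library set alone and without any single library other than anle138b replicate 2 (edgeR adjusted p from 0.0588 to 0.0987). NFATC4, a relative of NFATC2, had 6.58, 5.75 and 24.5 CPM in anle138b tumors, against 3.84, 4.22 and 4.71 CPM in untreated tumors. The groups did not overlap, with anle138b replicate 3 far above the rest. Its log2 fold change of 1.32 ± 0.33 did not pass (edgeR adjusted p = 0.132), and it was 0.62 in the 4-library set alone, against a log2 CPM difference of 2.35 in the 2-library pair (edgeR interaction log2 difference 1.76, unadjusted p = 0.000417, adjusted p = 0.357).

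None of the 17 tested targets of β-catenin passed for treatment by edgeR, against 1.05% of all genes. At an unadjusted p under 0.05 there were 0, against 8.49% of all genes. The median log2 fold change of the 17 targets was -0.02. JUN, a subunit of the transcription factor AP-1, had the smallest p of the list, with 28.8, 23.2 and 28.0 CPM in anle138b tumors, against 37.8, 31.1 and 29.95 CPM in untreated tumors. Every treated tumor was below every untreated tumor, and the log2 fold change of -0.30 ± 0.13 did not pass (edgeR adjusted p = 0.603). MYC, a transcription factor of growth genes, was the other of the 2 targets with separate groups, against 4.47% of all genes with the treated tumors wholly below. It is named after its values were seen, and had 60.8, 57.9 and 57.7 CPM in anle138b tumors, against 61.1, 68.2 and 62.8 CPM in untreated tumors (log2 fold change -0.12 ± 0.09, edgeR adjusted p = 0.867). EPHB2, an ephrin receptor, had 0.306, 0.639 and 1.17 CPM in anle138b tumors, against 0.913, 0.593 and 1.74 CPM in untreated tumors. NRCAM, a cell adhesion molecule, had 2.37, 1.84 and 6.23 CPM in anle138b tumors, against 1.83, 1.33 and 4.75 CPM in untreated tumors. The groups of both overlapped, and their log2 fold changes of -0.63 ± 0.35 and 0.40 ± 0.23 were the lowest and the highest of the list.

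In the list of other transducers of the β-catenin branch 0 of 29 were called, against 1.05% of all genes. At an unadjusted p under 0.05, where 8.49% of all genes lay, there was 1. That gene was BCL9L, a nuclear partner of β-catenin, with 6.81, 4.31 and 5.13 CPM in anle138b tumors, against 7.92, 9.26 and 7.68 CPM in untreated tumors. All its treated tumors were below all untreated tumors (log2 fold change -0.61 ± 0.20, edgeR adjusted p = 0.3). Its relative BCL9 had 15.8, 16.7 and 19.8 CPM in anle138b tumors, against 14.2, 14.5 and 15.8 CPM in untreated tumors, with the groups just separate in the other direction (log2 fold change 0.23 ± 0.12, edgeR adjusted p = 0.696). In this list treated tumors lay wholly higher for 3 genes and wholly lower for 1, against 4.03% and 4.47% of all genes. DVL3, a Dishevelled protein, had 147, 139 and 104 CPM in anle138b tumors, against 155, 171 and 114 CPM in untreated tumors, which overlapped (log2 fold change -0.17 ± 0.09).

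Of the other extracellular and surface modulators 0 of 12 were called, against 1.05% of all genes. At an unadjusted p under 0.05 there were 2 of the 12, against 8.49% of all genes. TRABD2A, a membrane protease that inactivates Wnt proteins, had 8.64, 7.03 and 3.998 CPM in anle138b tumors, against 8.77, 10.5 and 8.15 CPM in untreated tumors (log2 fold change -0.55 ± 0.20, edgeR adjusted p = 0.414). GPC6, a glypican, had 14.5, 11.3 and 19.9 CPM in anle138b tumors, against 10.7, 11.3 and 14.4 CPM in untreated tumors (log2 fold change 0.32 ± 0.14, edgeR adjusted p = 0.588). The groups of both overlapped, as did those of IGFBP4, a secreted binding protein, with 3.21, 4.07 and 5.06 CPM in anle138b tumors, against 7.19, 4.07 and 5.26 CPM in untreated tumors. Of the other ligands and secretion factors 0 of 4 were called, with 0 at an unadjusted p under 0.05. WLS, the Wnt cargo receptor, had 72.8, 71.3 and 90.3 CPM in anle138b tumors, against 62.1, 69.0 and 75.3 CPM in untreated tumors (log2 fold change 0.18 ± 0.09). PORCN, the enzyme that adds the lipid to Wnt proteins, had 9.18, 6.63 and 9.59 CPM in anle138b tumors, against 8.46, 7.63 and 7.93 CPM in untreated tumors. The ligand WNT2B had 9.56, 12.6 and 11.7 CPM in anle138b tumors, against 12.1, 8.74 and 13.3 CPM in untreated tumors, and the groups of these 3 genes overlapped.

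The naming sets differed for more of the Wnt genes than the treatment did. Between the 2-library and the 4-library set, 12 of the 35 genes were called by edgeR, 9 higher and 3 lower in the 2-library set, and 23 did not pass. Over all genes the share called was 15.5%, with 8.32% higher and 7.14% lower. The median log2 difference of the 35 genes was 0.17, against -0.02 over all genes. The sets also differed in depth and in markers of other cell types, and with 1 tumor of each treatment in the smaller set its values rest on 2 libraries. The part of these differences in the results below was not tested. The summed fibroblast and pericyte level was 621 to 898 CPM in the 2-library set and 458 to 570 CPM in the 4-library set, with 4 of 15 markers called higher and 0 lower. The 15 skeletal muscle markers, of which 7 were tested, summed to 340 to 349 CPM in the 2-library set and 291 to 504 CPM in the 4-library set, with 3 called lower.

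NKD1 showed the largest of these differences. It had 13.9 and 6.83 CPM in the treated and untreated tumor of the 2-library set, against 0.841, 1.20, 0.913 and 1.26 CPM in the 4-library set. The log2 difference was 3.23 ± 0.27 (edgeR adjusted p = 9.37e-05). FZD8 had 4.60 and 3.44 CPM in the 2-library set, against 0.688, 0.160, 1.10 and 0.741 CPM in the 4-library set (log2 difference 2.55 ± 0.40, edgeR adjusted p = 0.00347). For both genes the sets did not overlap. Leaving out anle138b replicate 3 gave an FZD8 difference of 1.88, leaving out untreated replicate 3 one of 3.42, and the call held in each. DKK3 was higher in the 2-library set by 1.94 ± 0.22 (edgeR adjusted p = 0.000524), though its untreated tumor in that set was below both treated tumors of the 4-library set, and the call was lost without the term for treatment (edgeR adjusted p = 0.122).

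SFRP1 had 32.6 and 32.2 CPM in the 2-library set, against 11.9, 15.9, 19.9 and 19.4 CPM in the 4-library set, a log2 difference of 0.97 ± 0.16 (edgeR adjusted p = 0.0037). ROR1, LRP6, APC, FZD3 and LGR4 were higher by 0.84 ± 0.14, 0.74 ± 0.11, 0.57 ± 0.09, 0.53 ± 0.10 and 0.44 ± 0.10 on the log2 scale. The levels of LRP6 were 72.7 and 92.0 CPM in the 2-library set, against 50.4, 48.9, 51.1 and 46.4 CPM in the 4-library set. FZD7 had 45.5 and 37.8 CPM in the 2-library set, against 67.8, 59.5, 76.2 and 97.3 CPM in the 4-library set, a log2 difference of -0.83 ± 0.18 (edgeR adjusted p = 0.0146). AXIN1 and WNT3 were also lower in the 2-library set, by log2 differences of -0.78 ± 0.17 and -0.71 ± 0.19. The calls of AXIN1, FZD7, FZD3, LGR4 and WNT3 were lost without untreated replicate 3 (edgeR adjusted p = 0.2, 0.167, 0.0686, 0.115 and 0.37). Those of ROR1, LGR4 and WNT3 were lost without anle138b replicate 3 (edgeR adjusted p = 0.0547, 0.0659 and 0.0515). LGR4 and WNT3 also lost theirs without anle138b replicate 1 (edgeR adjusted p = 0.0749 and 0.0673), and WNT3 without untreated replicate 1 or 2 (edgeR adjusted p = 0.0803 and 0.06) and with scaling by library size alone (edgeR adjusted p = 0.0636).

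The treatment effect was tested for a difference between the naming sets. By edgeR 0 of 35 Wnt genes and 0 genes of all passed, or 0%, with 6 of the 35 and 1345 of all, or 6.59%, at an unadjusted p under 0.05. By DESeq2 0 of the 35 and 31 of all passed, and by limma 0 and 0. The 6 genes were SFRP2, FZD7, ZNRF3, WNT6, AXIN1 and NKD1, and each had a larger treated-over-untreated value in the 2-library pair.

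The 16 genes below the filter had at most 115 counts in any library. ROR2, a receptor for WNT5A, had 3, 1 and 115 counts in anle138b tumors, against 8, 1 and 7 in untreated tumors. The value of 115 counts, or 4.07 CPM, in anle138b replicate 3 stood apart from the 0.0741 to 0.487 CPM of the other 5 tumors. WNT5B, a ligand related to WNT5A, had 6, 1 and 73 counts in anle138b tumors, against 4, 2 and 19 in untreated tumors. FZD9 had 0, 0 and 54 counts in anle138b tumors, against 3, 5 and 33 in untreated tumors. With no filter, where 1.62% of all genes were called for treatment and 0.564% for the interaction, ROR2 was called for treatment (edgeR adjusted p = 0.000436) and for its difference between the sets (edgeR interaction adjusted p = 0.00302), results that rest on 1 library. In the same fit 7 of the 16 were called higher in the 2-library set, WNT2, WNT5B, DKK2, FZD9, ROR2, DACT2 and NKD2, and 0 lower. Over all genes in that fit 13.4% were called between the sets, 8.38% higher and 5.07% lower. The filter asks for its level in as many libraries as a group has, 3, so a gene that reaches it only in the 2-library set does not pass. The 16 genes were thus picked in part for being higher in that set, which all genes of the fit were not. The direction of the 7 calls was therefore partly fixed in advance. FZD10 had at most 1 count in any library, and WNT10A, WIF1, DKK4, WNT7B, NOTUM and WNT11 at most 5.

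**Figure D4:**
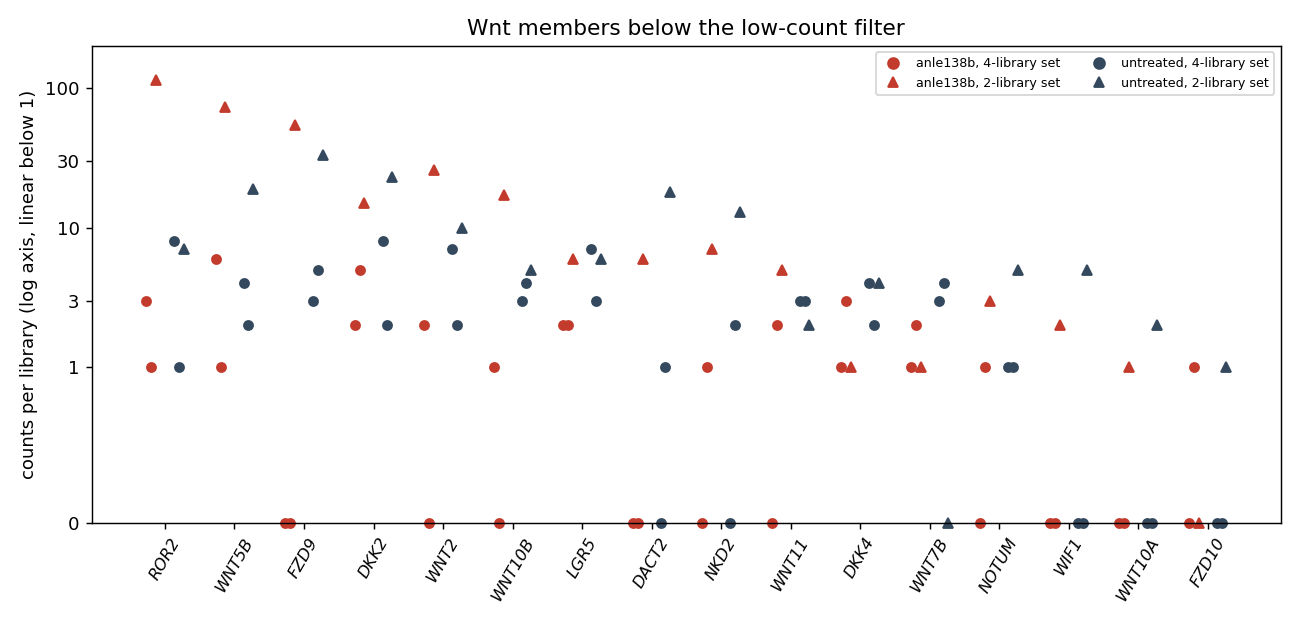
Counts per library of the 16 Wnt genes below the low-count filter, ordered by their total, on a log axis that is linear below 1, with anle138b (red) left of untreated (dark blue) for each gene. Triangles, the 2-library set, hold the highest counts of ROR2 (115), WNT5B (73) and FZD9 (54).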

How the data were processed

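Per the labels' protocols, Trizol was used for RNA extraction and the TruSeq RNA Library Prep Kit v2, which keeps no strand information, for library preparation. Raw counts per Ensembl gene were deposited. The submitters' processing notes name STAR 2.5.2a, featureCounts 1.5.0-p1, bcl2fastq 2.17.1.14 and hg38. Neither the annotation release nor the handling of strand, multiple hits or mouse reads is given in the sources used here, so reads of overlapping genes may be split, lost or counted for the antisense partner.

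Symbols, positions and exon-union lengths came from GENCODE release 29 (GRCh38). All 51 members and 188 list entries matched an identifier. The counts went into edgeR 4.0.16 (R 4.3.3). Low genes were removed with filterByExpr (by group, count at least 10, total at least 15), TMM factors were computed, and the quasi-likelihood F test had terms for treatment and naming set, which left 3 residual degrees of freedom. P-values were adjusted by Benjamini-Hochberg over all genes tested, with a threshold of 0.05. Standard errors derive from the F statistic. A prior count of 2 entered log2 CPM. The interaction had 2 residual degrees of freedom. The main fit was also run on counts simulated from its own fitted means and dispersions, which gives no check of those assumptions. Changes were set only in genes above a minimum level, so the lowest genes were not covered. Within the 4-library set, replicates of a group differed by a chi-square per degree of freedom of 9.16 (anle138b) and 8.97 (untreated). For pairs across the naming sets it was 21.5 to 49.7. Each library was therefore counted as 1 replicate. Replicate numbers follow listing order and pair no tumors.

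The members and lists were chosen with earlier results of these data known. Members past the threshold, with separate groups, or among the 5 highest per length are given per library, and so are called genes of the other lists, and up to 3 genes per list with the smallest p. Alternatives were no term for the other factor, DESeq2 size factors, upper-quartile scaling, library size alone, no low-count filter, at least 50 counts in 3 libraries, DESeq2 1.42.0 (Wald), voom in limma 3.58.1, the 4-library set alone and each library left out.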

Additional observations from a re-analysis of the deposited data

Results flagged for a closer look

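For 13 of the 35 tested Wnt genes both treated tumors of the 4-library set lay on one side of both untreated tumors and the treated tumor of the 2-library pair lay on the other side of its untreated partner, a pattern seen for 3270 of 20423 genes, or 16%. In 10 of them the treated tumors were lower in the 4-library set and higher in the pair. The difference was tested as an interaction by edgeR, given as the log2 effect in the 2-library pair minus that in the 4-library set, and none passed over all genes (adjusted p from 0.522 to 0.863). It was 1.56 for SFRP2 (unadjusted p = 0.00196), 0.716 for FZD7 (0.0187), 0.63 for ZNRF3 (0.0227), 0.808 for AXIN2 (0.0563), 1.12 for FZD2 (0.0574), 0.523 for FZD5 (0.0576), 1.52 for FZD8 (0.0731) and 0.515 for SFRP1 (0.089). It was 0.395 for WNT3 and 0.395 for FZD4. In RYK, TCF7 and TCF7L1 the treated tumors were higher in the 4-library set and lower in the pair, with values of -0.206, -0.423 and -0.602.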

How the results depend on the processing

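The count of genes called for treatment was 215. It was 9 without the naming set term, 754 with no low-count filter, 412 by DESeq2 and 92 in the 4-library set alone, and 89 (without anle138b replicate 3) to 392 (without anle138b replicate 2) with 1 library left out, a shift of over 1.5 times for every library but untreated replicate 2. Of the Wnt genes 2 were called, against 1 without the naming set term (DACT1) and 4 with no filter (with ROR1 and ROR2 added). By DESeq2 those called were DKK3, DACT1 and ROR1 (DESeq2 adjusted p = 0.0472 for ROR1). Between naming sets 3157 genes were called, against 6250 with no filter and 993 (without untreated replicate 3) to 5960 (without anle138b replicate 2) with 1 library left out. The Wnt count of 12 became 22 with no filter and 8 to 18 with 1 library left out. For the interaction 0 genes were called, against 1 with upper-quartile scaling, 11 with library size alone, 262 with no filter, 31 by DESeq2 and 24 to 436 with 1 library left out, where 1 residual degree of freedom remained, and among the Wnt genes 1 with no filter (ROR2). No interaction could be fitted without either library of the 2-library set. The cause of these shifts was not tested. Across alternatives the treatment log2 fold change ran from 2.57 to 3.30 for DKK3 and from 1.62 to 1.85 for DACT1, and no called value changed direction. No paired analysis was possible because the labels give the groups no shared replicate numbers. With 3 tumors per group, a change that missed the threshold is not shown to be absent. Levels under the floor of 3 counts, 0.106 to 0.240 CPM, could not be resolved.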

Other observations

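Summed levels of the 10 endothelial markers were 40.2 to 44.0 CPM in anle138b tumors and 45.3 to 53.8 CPM in untreated tumors, with no overlap and 0 of 7 tested markers called. The 7 markers were mixed, with log2 fold changes from -0.60 to 0.66. Of these, 3 had an unadjusted p under 0.05, against 8.49% of all genes. Treated tumors lay wholly lower for 1 marker and wholly higher for 0, against 4.47% and 4.03% of all genes. Among the other pathway genes, 24 of 92 were called between the naming sets, 11 higher and 13 lower in the 2-library set, where 15.5% of all genes were called, 8.32% higher and 7.14% lower. The 4 named next were chosen after their values were seen. TLE4, a co-repressor that binds TCF/LEF factors, was higher there by 1.93 ± 0.18 on the log2 scale (edgeR adjusted p = 0.000181), and TPBG, a membrane protein that modulates Wnt signalling, by 1.83 ± 0.25 (edgeR adjusted p = 0.00141). FOSL1 and SP5, both targets of β-catenin, were lower by log2 differences of -1.40 ± 0.16 and -1.49 ± 0.33. Of the 17 tested targets of β-catenin, 4 were called higher and 3 lower in the 2-library set. The log2 differences of the 17 ran from -1.49 to 1.57, with a median of -0.04.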
